A study of Mus musculus with 11 samples.

Results

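NF-kB subunits and the inhibitors that NF-kB itself induces were followed in CD4 T cells from fibrotic mouse liver. They comprise 10 genes of the 56748 in the count table, chosen by name and matched through their Ensembl IDs to GENCODE M21 (GRCm38), with 1 ID for each symbol. The canonical subunit genes are Nfkb1, Rel and Rela, and the non-canonical ones Nfkb2 and Relb. Nfkbia, Nfkbie and Tnfaip3 encode inhibitors that act in the cytoplasm, and Nfkbiz and Bcl3 encode nuclear relatives of the IkB proteins.

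All mice had received carbon tetrachloride, a hepatocyte toxin, for 5 weeks, and all libraries are labelled as liver CD4 T cells. Of 11 libraries, 6 are labelled ATG5TLymph-/-, a deletion of the autophagy gene Atg5 in T lymphocytes, and 5 wildtype, which the design text names ATG5fl/fl, the floxed and undeleted allele. The sources used here do not give the promoter that drives the deletion, the age of the mice or whether each library is 1 mouse, and p-values therefore measure the spread between these samples, which may be technical. The design text describes flow sorting, and the extraction protocol describes sections of fixed, embedded blocks.

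NF-kB is a family of dimeric transcription factors that rest in the cytoplasm. In the canonical route, antigen and cytokine receptors activate the IKK kinase, IkB proteins such as IkB-alpha are degraded, and dimers of p50 with RelA or c-Rel enter the nucleus. In the non-canonical route, certain TNF receptors stabilise the kinase NIK, p100 is processed to p52, and p52 with RelB enters the nucleus. Many of the genes that encode inhibitors and subunits are themselves induced by NF-kB, which closes feedback loops. In CD4 T cells the family is known for its part in activation, survival and differentiation.

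Libraries held 30699408 to 47564440 counted reads. Summed markers of CD4 T cells ran from 2393 to 2629.7 CPM in the wild-type and from 2480.2 to 3639.6 CPM in the Atg5-deficient group (CPM, counts scaled to a common library size; adjusted p = 0.0693, exact permutation test). They exceeded those of hepatocytes (49.1 to 1143 CPM) in every library. Hepatocyte markers were highest in Atg5-deficient replicates 1, 2 and 3, with 1079, 1143 and 845 CPM, and reached at most 661 CPM in the wild-type group. Cd4 stood at 827 ± 145 CPM (SD, n = 6) in the Atg5-deficient and 668 ± 35.8 CPM (SD, n = 5) in the wild-type group. Atg5 stood at 19.2 ± 2.51 CPM (SD, n = 6) against 16.9 ± 3.59 CPM (SD, n = 5), and since reads outside the deleted part count for the gene as well, this does not check the labels. In such bulk libraries, fewer cells of a type and less RNA per cell cannot be told apart.

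All 10 genes were well measured, with 966 counts (Bcl3) to 119058 counts (Tnfaip3) in a library, and all passed the filter on low counts. Divided by exon length, the wild-type levels formed 3 tiers. That length merges all annotated exons, from 1610 bases for Nfkbia to 12061 for Nfkb1, so levels per kb depend on the annotation. The inhibitor genes Tnfaip3 and Nfkbia led with 211 ± 53.8 and 196 ± 26.5 CPM per kb (SD, n = 5), and their ranges overlapped. Nfkbiz, Rela, Nfkb2, Nfkb1 and Nfkbie followed at 38.8, 32.0, 27.1, 25.7 and 23.8 CPM per kb, and no neighbours in that order were separated by their ranges. Bcl3, Relb and Rel were lowest with 15.3, 11.5 and 10.3 CPM per kb, again overlapping from each to the next. Gaps between the ranges lay only between Nfkbia and Nfkbiz and between Nfkbie and Bcl3, in the wild-type and in the Atg5-deficient group alike. Rela stood above Nfkb2 in the wild-type order (32.0 against 27.1 CPM per kb) and below it in the Atg5-deficient order (34.7 against 41.9 CPM per kb).

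The genotype comparison asks whether loss of Atg5 in T cells went with a different level of these genes. Nfkb2, which encodes p100, the precursor of p52, rose 1.55-fold, and it was the single member that passed the test. Its call was not stable, as described with its values. The other 9 genes did not pass. Thus 1 of 10 members was called higher and 0 lower, where 4.43% of all 17987 tested genes were called higher, 2.41% lower and 6.84% in either direction (edgeR's quasi-likelihood test, Benjamini-Hochberg adjusted p under 0.05). All 10 log2 fold changes were positive, with a median of 0.32, where 49.7% of all tested genes had a positive value and the median was -0.0027. With an unadjusted p under 0.05, 5 members were higher, namely Nfkb1, Nfkb2, Relb, Nfkbia and Nfkbie, against 12.7% of tested genes. In 0 of 10 members were the groups without overlap, against 4.86% of tested genes, 2.78% with all Atg5-deficient libraries higher and 2.08% with all lower. Many members were correlated across libraries, as shown further on, so these counts are not counts of independent genes.

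**Figure D1:**
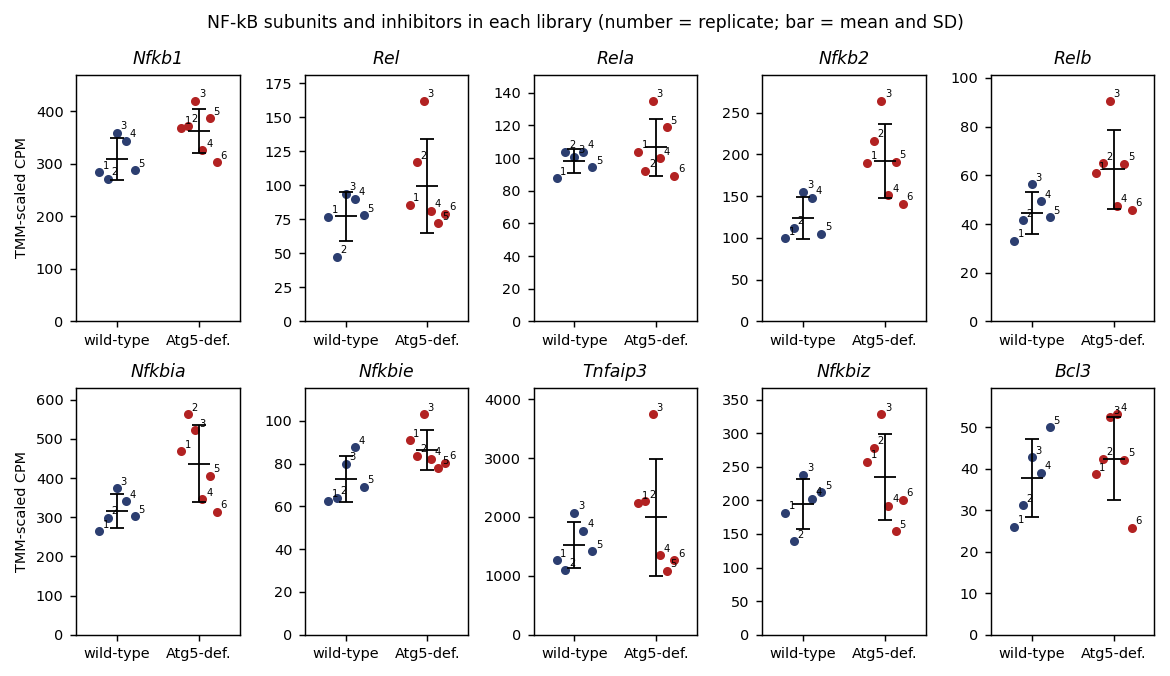
TMM-scaled CPM (vertical axes, from 0) of the 10 genes in each library, with the replicate number beside each point and bars for the mean and SD of 5 wild-type and 6 Atg5-deficient libraries. The groups overlap in every panel, and Atg5-deficient replicate 3 is the highest point for 8 of the 10 genes.

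Among canonical subunits, Nfkb1 encodes p105 and its product p50. This gene (ENSMUSG00000028163, chromosome 3, 135584655 to 135691547, minus strand) stood at 284, 272, 359, 344 and 288 CPM in wild-type replicates 1 to 5. The Atg5-deficient libraries ran from 303 to 419.7 CPM with a median of 370.4 CPM, and 4 of 6 lay above every wild-type library. The means were 363 ± 42.1 against 309.6 ± 39.2 CPM, and the log2 fold change of 0.23 (SE 0.10, 95% interval 0.01 to 0.45, edgeR adjusted p = 0.195) did not pass.

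Rel encodes c-Rel, the subunit most tied to antigen-receptor responses of lymphocytes. Rel (ENSMUSG00000020275, chromosome 11, 23736847 to 23770970, minus strand) had 76.9, 47.4, 93.6, 90.0 and 77.9 CPM in wild-type replicates 1 to 5, against a lowest value of 72.0, a median of 83.4 and a highest of 162 CPM in the Atg5-deficient group. Only replicates 2 and 3 of that group exceeded the wild-type range. The log2 fold change of 0.37 (SE 0.23, 95% interval -0.13 to 0.86, edgeR adjusted p = 0.367) was 0.17 without Atg5-deficient replicate 3.

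Rela, which encodes the activating subunit p65, differed least of the 5 subunit genes. Rela (ENSMUSG00000024927, chromosome 19, 5637483 to 5648130, plus strand) had 87.6, 104, 101, 104 and 94.5 CPM in wild-type replicates 1 to 5 and 89.1 to 135 CPM, with a median of 102 CPM, in the Atg5-deficient libraries. The ranges overlapped, and replicates 3 and 5 of that group, and replicate 1 by a small margin, lay above every wild-type library. Its log2 fold change was 0.12 (SE 0.11, 95% interval -0.11 to 0.35, edgeR adjusted p = 0.541), so a rise above 0.35 lay outside the interval.

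The Rel and Rela promoter windows are shown because these canonical subunit genes differ in whether they hold a kappa-B match, the sequence that NF-kB dimers are known to bind. The windows are from RefSeq (GRCm38.p6) and reach from 250 bases before to 50 bases after a listed start. Capitals mark matches on either strand to the 10-letter kappa-B consensus or to GGANTTTCC, and overlapping matches merge into 1 stretch. Rel, chr11:23770920-23771219, minus strand, has 1 stretch 92 bases before its start, and Rela, chr19:5637291-5637590, plus strand, has none.
Rel: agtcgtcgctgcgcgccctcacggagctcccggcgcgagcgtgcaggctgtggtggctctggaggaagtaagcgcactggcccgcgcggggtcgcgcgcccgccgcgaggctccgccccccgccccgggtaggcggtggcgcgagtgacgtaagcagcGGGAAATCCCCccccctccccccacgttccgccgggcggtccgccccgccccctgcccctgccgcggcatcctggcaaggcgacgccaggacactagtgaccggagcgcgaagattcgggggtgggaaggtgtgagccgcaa
Rela: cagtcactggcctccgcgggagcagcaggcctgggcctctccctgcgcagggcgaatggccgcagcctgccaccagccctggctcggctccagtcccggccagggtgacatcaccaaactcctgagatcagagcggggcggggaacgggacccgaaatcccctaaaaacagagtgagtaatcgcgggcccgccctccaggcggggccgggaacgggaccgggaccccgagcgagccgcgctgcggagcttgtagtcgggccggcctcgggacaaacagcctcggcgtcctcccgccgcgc

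With edgeR and all libraries, the non-canonical subunit genes Nfkb2 and Relb had the largest log2 fold changes of the 10. The inhibitor gene Nfkbia was close to Relb (0.47 against 0.49), and their order was not stable. Nfkbia was above Relb with limma-voom (0.50 against 0.44) and without Atg5-deficient replicate 3 (0.41 against 0.35). It was below Relb with DESeq2 (0.47 against 0.49). Nfkb2 (ENSMUSG00000025225, chromosome 19, 46304320 to 46312385, plus strand) stood at 99.8, 112, 155, 148 and 105 CPM in wild-type replicates 1 to 5. In the Atg5-deficient group its lowest value was 141 CPM, the median 190.5 CPM and the highest 264 CPM. Replicates 1, 2, 3 and 5 of that group exceeded every wild-type library, and replicates 4 and 6 lay within the wild-type range. The means were 192 ± 44.9 CPM (SD, n = 6) against 124 ± 25.7 CPM (SD, n = 5), a log2 fold change of 0.63 (SE 0.17, 95% interval 0.27 to 0.99, edgeR adjusted p = 0.0406).

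With single libraries left out, the call of Nfkb2 held in 4 of 11 fits, with log2 fold changes from 0.52 to 0.73 and adjusted p from 0.0221 to 0.0920. It was lost without Atg5-deficient replicate 1, 2 or 5 and without wild-type replicate 1, 2, 4 or 5. Nfkb2 shares 531 exonic bases with the noncoding gene AC114539.1 and 299 with Psd, both on the other strand. AC114539.1 had 12.1% of the Nfkb2 count, at 19.6 ± 1.52 against 19.4 ± 4.54 CPM (log2 fold change 0.02, edgeR adjusted p = 0.962), and Psd had 0.919%.

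Relb, which encodes the partner of p52, followed the same pattern at a lower level. Relb (ENSMUSG00000002983, chromosome 7, 19606217 to 19629438, minus strand) had 33.0, 41.5, 56.3, 49.3 and 42.8 CPM in wild-type replicates 1 to 5, and 45.8 to 90.5 CPM with a median of 62.8 CPM in the Atg5-deficient group. Again replicates 4 and 6 of that group fell within the wild-type range. The log2 fold change of 0.49 (SE 0.17, 95% interval 0.11 to 0.86, edgeR adjusted p = 0.109) did not pass, and it passed only with DESeq2 (adjusted p = 0.0464, over an alternatives' range of 0.0464 to 0.426).

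**Figure D2:**
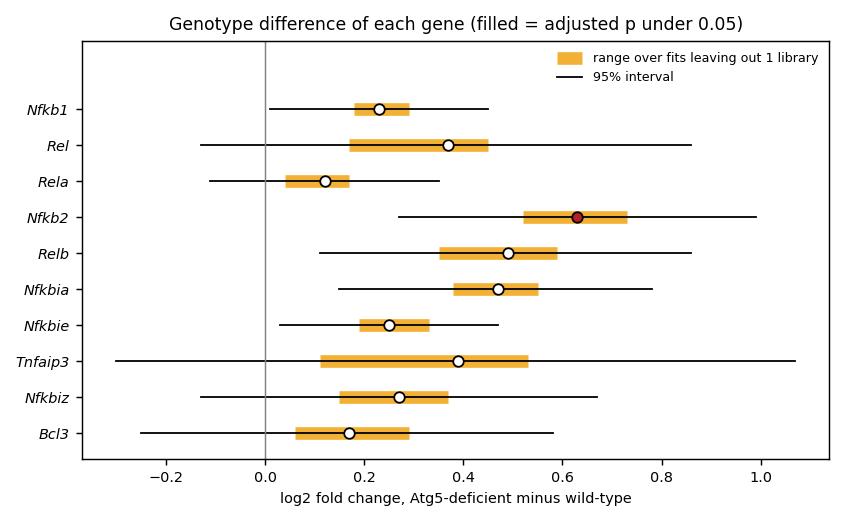
Log2 fold change of each gene, Atg5-deficient minus wild-type (horizontal axis), with its 95% interval as a line and the range over 11 fits that each left out 1 library as a band. Nfkb2, the filled point at 0.63, and Relb, at 0.49, lie farthest from 0, and Rela, at 0.12, nearest to it.

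RefSeq lists 3 starts for Nfkb2, and the window of the first is printed because Nfkb2 is the member that passed the test. It lies at chr19:46304487-46304786, plus strand, and its capitals again mark kappa-B matches, 39 and 11 bases before the start. A match of the GGGACTTTCC form lies in the windows of the other starts, which overlap, so that it is the same site in both.
Nfkb2: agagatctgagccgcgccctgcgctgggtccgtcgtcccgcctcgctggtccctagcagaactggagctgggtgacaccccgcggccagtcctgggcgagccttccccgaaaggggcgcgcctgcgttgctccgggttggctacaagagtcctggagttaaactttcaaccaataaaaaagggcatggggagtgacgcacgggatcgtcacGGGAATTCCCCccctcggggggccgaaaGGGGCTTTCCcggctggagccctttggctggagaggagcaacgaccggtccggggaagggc

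Relb and Nfkb2 are abundant in dendritic cells and B cells as well, so markers of those cells were summed in each library. The 7 dendritic cell markers summed to 4.74 to 13.3 CPM in the Atg5-deficient and to 2.17 to 5.42 CPM in the wild-type group (adjusted p = 0.0693, exact permutation test over 462 splits, two-sided). Of the 7, only 3 passed the low-count filter and were tested, and 1 of these, Itgax, was called higher (log2 fold change 2.67, edgeR adjusted p = 0.0300). Itgax ran from 0.242 to 4.11 CPM in the Atg5-deficient and from 0.104 to 0.606 CPM in the wild-type libraries. Zbtb46 ran from 1.23 to 8.57 against 1.51 to 3.76 CPM. The highest Atg5-deficient and wild-type values were 0.625 and 0.263 CPM for Flt3, 0.603 and 0.420 CPM for Xcr1, and 0.420 and 0.165 CPM for Siglech. For Clec9a they were 0.105 and 0.220 CPM, and for Cd209a 0.0483 and 0.442 CPM, and Clec9a, Siglech and Cd209a were at 0 in at least 1 library of each group. B cell markers summed to 7.40 to 26.3 against 6.88 to 17.7 CPM, and macrophage and monocyte markers to 5.22 to 20.8 against 10.1 to 14.7 CPM. With the sum of these 3 lists as a covariate, the log2 fold change of Nfkb2 was 0.47 and its call was lost (edgeR adjusted p = 0.121).

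Set against the canonical subunits of the same library, the non-canonical ones stood higher in the Atg5-deficient group. The mean log2 CPM of Nfkb2 and Relb minus that of Nfkb1, Rel and Rela was -0.47, -0.42, -0.44, -0.70, -0.42 and -0.68 in Atg5-deficient replicates 1 to 6. In wild-type replicates 1 to 5 it was -1.11, -0.69, -0.69, -0.79 and -0.94. So 5 of 6 Atg5-deficient libraries lay above every wild-type library, and replicate 4 lay just within the wild-type range. The group means were -0.52 ± 0.13 and -0.84 ± 0.18, a difference of 0.32 on the log2 scale, given without a test because the genes were chosen with results of these data known. The difference was 0.23 among the 8 libraries with consecutive title numbers, and 0.24 without the 3 Atg5-deficient libraries of highest hepatocyte markers. A shift of this size was not particular to the non-canonical genes. The inhibitor gene Nfkbia minus Rela was 2.02 ± 0.33 in the Atg5-deficient and 1.68 ± 0.14 in the wild-type group, a difference of 0.34. There, 3 of 6 Atg5-deficient libraries lay above every wild-type library.

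The precursor genes Nfkb2 and Nfkb1 taken alone showed the same contrast of non-canonical with canonical. Nfkb2 minus Nfkb1 ran from -1.11 to -0.67 in the Atg5-deficient and from -1.51 to -1.21 in the wild-type libraries on the log2 CPM scale, without overlap. Of all tested genes, 0.534% had a log2 ratio to Nfkb1 that was higher in this way without overlap. That share does not measure chance for this pair. Nfkb2 and Nfkb1 varied together across libraries (r = 0.94), which narrows their ratio, and the genes were chosen with results known. Relb minus Rela overlapped between the groups, from -1.07 to -0.50 against -1.41 to -0.85. As all wild-type and Atg5-deficient values were below 0, Nfkb2 had fewer counts than Nfkb1 and Relb fewer than Rela in every library. Counts depend on gene length, however. Divided by exon length, mean Nfkb2 was above Nfkb1, at 27.1 against 25.7 CPM per kb in the wild-type group, with overlapping ranges. In the Atg5-deficient group it was 41.9 against 30.1 CPM per kb, again with overlapping ranges. Mean Relb stayed below Rela. The exon length used merges all annotated exons, 12061 bases for Nfkb1 and 4584 for Nfkb2. Where the transcripts in use are shorter, the level per kb is too low, so the order of Nfkb2 and Nfkb1 is uncertain.

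**Figure D3:**
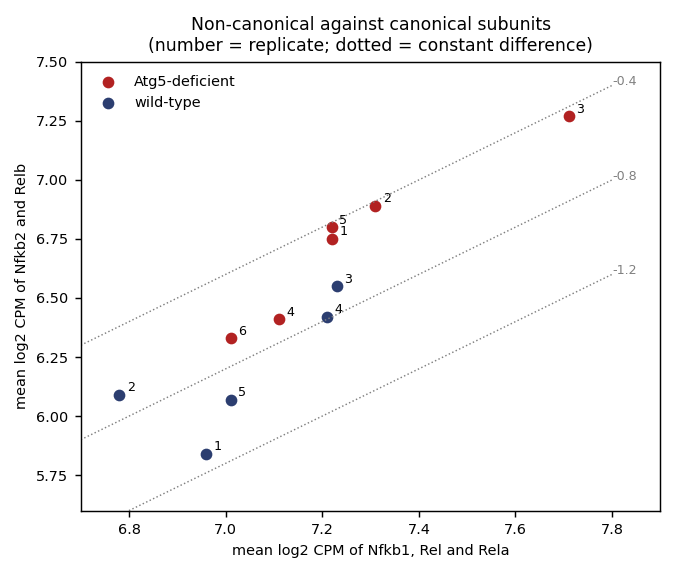
Mean log2 CPM of Nfkb2 and Relb (vertical axis) against that of Nfkb1, Rel and Rela (horizontal axis), 1 point per library with its replicate number, and dotted lines of constant difference. Of the 6 Atg5-deficient points, 5 show a difference above that of every wild-type point, and Atg5-deficient replicate 3 is highest on both axes.

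Of the cytoplasmic inhibitors, Nfkbia came nearest to the threshold. It encodes IkB-alpha, which binds NF-kB dimers and is rapidly made anew after their activation. Nfkbia (ENSMUSG00000021025, chromosome 12, 55489410 to 55492647, minus strand) stood at 264, 298, 374, 341 and 302 CPM in wild-type replicates 1 to 5, and at 314 to 563 CPM with a median of 437 CPM in the Atg5-deficient group. Replicates 1, 2, 3 and 5 exceeded the wild-type range, the same 4 libraries as for Nfkb2. The log2 fold change was 0.47 (SE 0.15, 95% interval 0.15 to 0.78, edgeR adjusted p = 0.0718). DESeq2 and limma-voom called it (adjusted p = 0.0217 and 0.0258), over an alternatives' range of 0.0217 to 0.444.

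Nfkbie, which encodes IkB-epsilon, differed by less. Nfkbie (ENSMUSG00000023947, chromosome 17, 45555703 to 45563169, plus strand) had 62.6, 63.9, 79.9, 87.5 and 69.2 CPM in wild-type replicates 1 to 5 and 77.9 to 103 CPM, with a median of 83.0 CPM, in the Atg5-deficient libraries. Only Atg5-deficient replicates 1 and 3 exceeded the highest wild-type library. Its log2 fold change was 0.25 (SE 0.10, 95% interval 0.03 to 0.47, edgeR adjusted p = 0.163).

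Tnfaip3 encodes A20, an enzyme that edits ubiquitin chains and ends signalling to IKK, and it varied most between libraries. Tnfaip3 (ENSMUSG00000019850, chromosome 10, 19000910 to 19015657, minus strand) had 1263, 1108, 2067, 1763 and 1417 CPM in wild-type replicates 1 to 5. Atg5-deficient replicates 1, 2 and 3 had 2241, 2268 and 3744 CPM, above every wild-type library, and replicates 4, 5 and 6 had 1349, 1087 and 1266 CPM, within or below the wild-type range. The log2 fold change of 0.39 had the widest interval of the 10 genes (SE 0.31, 95% interval -0.30 to 1.07, edgeR adjusted p = 0.503). It was 0.11 without Atg5-deficient replicate 3, whose removal brought the group mean from 1993 to 1642 CPM. The high replicates 1, 2 and 3 are those with the highest hepatocyte markers, and without all 3 of them the value of Tnfaip3 was -0.30 (edgeR adjusted p = 0.379). These 3 were also the highest of their group for Tnfaip3, so a lower value without them was set in advance. The fit therefore cannot tell hepatocyte content from other properties of these libraries.

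The Nfkbia and Tnfaip3 promoter windows are shown because these inhibitor genes are textbook NF-kB targets and hold several stretches each in the windows printed. Nfkbia, chr12:55492598-55492897, minus strand, has 2 stretches in capitals, 178 and 29 bases before its start. Tnfaip3, chr10:19015361-19015660, minus strand, is the window of 1 of 2 Tnfaip3 starts in RefSeq and has 3 stretches, at 125, 24 and 12 bases before that start. The window of the other start, chr10:19011914-19012213, has 0.
Nfkbia: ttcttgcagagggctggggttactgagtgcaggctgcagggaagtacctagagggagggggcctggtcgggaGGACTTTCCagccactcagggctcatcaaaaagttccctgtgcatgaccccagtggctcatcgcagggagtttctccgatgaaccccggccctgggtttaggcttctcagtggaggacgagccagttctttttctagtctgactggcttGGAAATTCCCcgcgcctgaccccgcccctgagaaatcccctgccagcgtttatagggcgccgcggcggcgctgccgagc
Tnfaip3: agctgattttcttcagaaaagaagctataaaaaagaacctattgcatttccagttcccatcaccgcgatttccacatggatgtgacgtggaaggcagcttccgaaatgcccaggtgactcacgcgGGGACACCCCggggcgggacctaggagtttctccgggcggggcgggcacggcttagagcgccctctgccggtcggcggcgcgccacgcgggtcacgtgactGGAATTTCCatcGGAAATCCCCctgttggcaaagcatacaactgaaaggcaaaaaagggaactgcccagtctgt

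The nuclear IkB relatives did not pass the test. Nfkbiz, which encodes IkB-zeta, a cofactor of NF-kB at secondary response genes and a factor in Th17 development, lies on chromosome 16 (ENSMUSG00000035356, 55811375 to 55838899, minus strand). It had 181, 139, 238, 202 and 212 CPM in wild-type replicates 1 to 5, against 154 to 328 CPM and a median of 229 CPM in the Atg5-deficient group (log2 fold change 0.27, SE 0.19, 95% interval -0.13 to 0.67, edgeR adjusted p = 0.414). Replicates 1, 2 and 3 of that group were above the wild-type range, the same as for Tnfaip3, and without them the log2 fold change was -0.09 (edgeR adjusted p = 0.783). Here too the libraries left out were the highest of their group, so a lower value was set in advance. Bcl3, which encodes a partner of p50 and p52 homodimers, lies on chromosome 7 (ENSMUSG00000053175, 19808462 to 19822770, minus strand). It had 26.0, 31.2, 42.7, 39.0 and 50.0 CPM in wild-type replicates 1 to 5. The Atg5-deficient libraries ran from 25.8 to 53.1 CPM with a median of 42.3 CPM, so the ranges nearly coincided (log2 fold change 0.17, SE 0.19, 95% interval -0.25 to 0.58, edgeR adjusted p = 0.654). Bcl3 shares 161 exonic bases with the antisense gene Gm16175, which had 0.0662% of its count.

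RefSeq windows were matched for 7 of the 10 genes, with 10 windows, and Nfkb1, Relb and Nfkbiz were not among them. The kappa-B consensus matched in 6 of the 7 genes, all but Rela, and in 8 of the 10 windows. Of these windows, 2 of Nfkb2 overlap and share a match, so the windows are not all separate. Among all 27025 genes with a window, 5.14% had a match in at least 1, and 4.51% of all 32851 windows had one. The shorter form GGANTTTCC, which can overlap the consensus, was found in 3 of the 7 genes, namely Nfkb2, Nfkbia and Tnfaip3, and in 1.45% of all genes. Rela, the gene without a match in its window, had the smallest log2 fold change (0.12), but Bcl3, with a match 2 bases after its start base, had the next smallest (0.17). A match describes letters in the window, and binding was not measured here.

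Apart from genotype, many of the 10 genes varied together from library to library. Deviations of log2 CPM from the genotype means were positively correlated in all 45 pairs over 11 libraries, with a median Pearson r of 0.69 (range 0.14 to 0.96), and 21 pairs passed after Benjamini-Hochberg adjustment over the 45 (permutation within genotype). Without the 2 libraries farthest from the median of the first gene of each pair, in the order in which the genes were introduced, the median r was 0.57. The genes of the non-canonical partners were the closest pair. Nfkb2 and Relb had r = 0.96 (rho = 0.96, permutation adjusted p = 0.00112 and 0.00135), and 0.92 without Atg5-deficient replicates 3 and 6. Nfkb1 joined them, at r = 0.94 with Nfkb2 (rho = 0.93, permutation adjusted p = 0.00506 and 0.00521) and 0.90 with Relb.

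A second close group was formed by Tnfaip3, Nfkbiz and Rel. Tnfaip3 and Nfkbiz had r = 0.94 (rho = 0.95, permutation adjusted p = 0.00373 and 0.00337), and 0.90 without Atg5-deficient replicates 3 and 5. Rel had r = 0.91 with Nfkbiz (rho = 0.92, permutation adjusted p = 0.00315 and 0.00285) and 0.88 with Tnfaip3, each falling to 0.84 without Atg5-deficient replicate 3 and wild-type replicate 2. Rela and Nfkbiz were the least related pair, with r = 0.14 (rho = 0.03, permutation adjusted p = 0.718 and 0.951), which became -0.50 without Atg5-deficient replicates 3 and 6. None of the 9 pairs with Bcl3 passed on r.

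**Figure D4:**
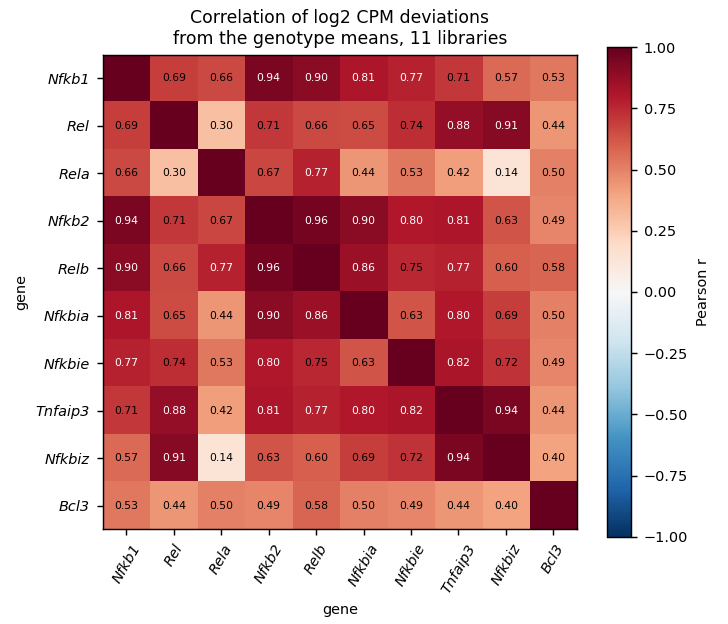
Pearson correlation of log2 CPM deviations from the genotype means between each pair of the 10 genes over 11 libraries (colour and number in each cell). Nfkb1, Nfkb2, Relb and Nfkbia correlate at 0.81 to 0.96 with each other, Tnfaip3, Nfkbiz and Rel at 0.88 to 0.94, and Bcl3 at 0.40 to 0.58 with the other 9.

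Atg5-deficient replicate 3 had the highest level of all 11 libraries for 8 of the 10 genes, and replicates 2 and 4 for Nfkbia and Bcl3. Within the Atg5-deficient group, replicate 6 was lowest for 6 genes and replicate 5 for the other 4. In the wild-type group replicate 3 was highest for 7 genes, and replicates 1 and 2 were lowest for 6 and 4.

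Summed hepatocyte markers rose with some of these genes, though no relation passed after adjustment. Over deviations from the genotype means of 11 libraries, r with the marker sum was 0.74 for Nfkbia (rho = 0.75), 0.70 for Nfkb2 (rho = 0.65) and 0.66 for Tnfaip3 (rho = 0.74). Permutation p was 0.02, 0.0313 and 0.0423 for r, and adjusted p over the 10 relations was 0.141 for each, and 0.134 for each rho. Without Atg5-deficient replicate 4 and wild-type replicate 5, the libraries farthest from the median, r was 0.77, 0.62 and 0.73. With the marker sum as a covariate, Nfkb2 kept its call (log2 fold change 0.53, edgeR adjusted p = 0.0264) and Tnfaip3 had 0.13. Without the 3 libraries whose marker sum exceeded every wild-type library, Nfkb2 had 0.38 and was not called (edgeR adjusted p = 0.200), and 8 of the 10 log2 fold changes were positive. Only Atg5-deficient libraries were left out in that fit. Those kept had marker sums of 66.6 to 273 CPM, against 49.1 to 661 CPM in the wild-type group, so the groups were not balanced by it.

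The tested genes whose pattern over the 11 libraries was most like that of Relb included 3 other members. By Spearman's rho of log2 CPM they were Nfkb2 (0.98), Nfkb1 (0.98), Nfkbia (0.97), Fam107b (0.96) and Fam160a1 (0.95). Those most like Nfkb1 were Relb (0.98), Arhgap31 (0.97), Nfkb2 (0.95), Fam160a1 (0.95) and Mvp (0.95). These are descriptions over libraries that share depth and preparation, with genotype left in.

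Of 16 tested receptors that signal to NF-kB, 6 rose and none fell, with a median log2 fold change of 0.53. Over all tested genes, 4.43% were called higher and 2.41% lower. Tnfrsf1b, which encodes TNF receptor 2, averaged 117 ± 10.8 CPM in wild-type and 212 ± 27.8 CPM in Atg5-deficient libraries (edgeR log2 fold change 0.85, adjusted p = 0.00118). The chains of the IL-18 receptor, Il18r1 (0.56, adjusted p = 0.00505) and Il18rap (1.25, adjusted p = 0.00927), rose with it, as did Tnfrsf4 (0.94), which encodes OX40. Ltbr, the lymphotoxin receptor that engages NIK in stromal and myeloid cells, was near the limit of detection at 0.893 ± 0.917 against 0.636 ± 0.702 CPM and did not pass. The number of receptors called was 1 among the 8 libraries with consecutive title numbers, 3 with the covariate of B cell, dendritic cell and macrophage markers, and 3 without Atg5-deficient replicate 2, wild-type replicate 1 or wild-type replicate 4.

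Of 12 genes of the IKK complex and its ubiquitin machinery, 1 fell and none rose, with a median log2 fold change of 0.02. Over all tested genes, 2.41% fell and 4.43% rose. The gene that fell was Ikbkb, which encodes the catalytic kinase IKK-beta. Its mean was 274 ± 23.7 CPM in the wild-type and 219 ± 16.9 CPM in the Atg5-deficient group (edgeR log2 fold change -0.32, adjusted p = 0.0300). Tab2 (0.29, adjusted p = 0.0580) and Rbck1 (0.16, adjusted p = 0.233) did not pass. The call of Ikbkb was lost without Atg5-deficient replicate 1 or 2 and without wild-type replicate 1, 3, 4 or 5, among the 8 libraries with consecutive title numbers, and without the 3 libraries of highest hepatocyte markers. For this list, 1 gene was called higher with DESeq2, with limma-voom, with the stricter filter on low counts, with B cell, dendritic cell and macrophage markers as a covariate, and without Atg5-deficient replicate 3 or 6. In the route from the antigen receptor to IKK, 1 of 8 tested genes rose, against 4.43% of all tested genes. It was the costimulatory receptor gene Icos (log2 fold change 0.65, edgeR adjusted p = 0.00557), which was not called among the 8 libraries with consecutive title numbers. Prkcb (-0.13) and Malt1 (0.29), which encodes the paracaspase that cleaves A20, did not pass.

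The kinase of the non-canonical route and its turnover machinery gave 0 calls among 6 tested genes with edgeR, against 6.84% of all tested genes. Traf3 (0.24, edgeR adjusted p = 0.0678), Otud7b (0.32, adjusted p = 0.0688) and Map3k14 (-0.21, adjusted p = 0.175), which encodes NIK itself, each had an unadjusted p under 0.05. So did 4205 of all 17987 tested genes, counted in either direction. With B cell, dendritic cell and macrophage markers as a covariate edgeR called 1 of the 6 higher and 1 lower. It called 1 higher with hepatocyte markers as a covariate, and 1 higher without Atg5-deficient replicate 6. DESeq2 called 2 of the 6 higher, limma-voom 2 higher and 1 lower, and without Atg5-deficient replicate 3 edgeR called 2 higher and 1 lower. Over all 17987 tested genes, DESeq2 called 1394 higher and 939 lower, and limma-voom 1966 and 1460. Without Atg5-deficient replicate 3, edgeR called 1410 of 17704 genes higher and 733 lower. Traf3, the adaptor by which NIK is degraded, had 113 ± 4.57 CPM in wild-type and 133 ± 11.3 CPM in Atg5-deficient libraries, without overlap, and Map3k14 had 114 ± 7.13 and 98.6 ± 12.7 CPM, with overlap. Of 5 IKK-related kinases and adaptors, 1 rose, against 4.43% of all tested genes. This was Tank (0.41, edgeR adjusted p = 0.0459), whose call held in 4 of 11 fits when single libraries were left out. The call was lost with upper-quartile factors, with either marker covariate, among the 8 libraries with consecutive title numbers and without the 3 libraries of highest hepatocyte markers. Tbkbp1 (1.10, adjusted p = 0.182) and Ikbke (-0.24, adjusted p = 0.236) did not pass, and 1 gene of this list was called lower with limma-voom and without Atg5-deficient replicate 6.

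Among 16 tested further inhibitors and brakes, 3 rose and none fell (over all tested genes, 4.43% and 2.41%), with a median of 0.24. Nfkbib, which encodes IkB-beta, averaged 42.5 ± 2.95 CPM in wild-type and 57.3 ± 5.48 CPM in Atg5-deficient libraries (edgeR log2 fold change 0.43, adjusted p = 0.0111). N4bp1 (0.49, adjusted p = 0.0135), a restraint on NF-kB signalling that MALT1 cleaves, and Nlrx1 (0.80, adjusted p = 0.0161) rose as well. The count remained 3 in each of the 11 fits without 1 library, and was 1 without the 3 libraries of highest hepatocyte markers and 0 among the 8 libraries with consecutive title numbers. Nfkbid, the gene of a further nuclear IkB relative, stood at 152 ± 70.4 against 103 ± 38.6 CPM and did not pass (0.56, edgeR adjusted p = 0.347).

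Of 31 tested textbook NF-kB target genes, 5 rose and 1 fell (over all tested genes, 4.43% and 2.41%), with a median of 0.56. Tnf (0.57, edgeR adjusted p = 0.00996), the transcription factor gene Irf4 (0.56, adjusted p = 0.0220), the survival genes Bcl2l1 (0.65) and Bcl2a1b (0.88) and the adhesion gene Icam1 (0.63) rose. Ccr7, the lymph node homing receptor, fell (-0.72, edgeR adjusted p = 0.0192). Reads of Bcl2a1b may be split with its near-identical copies, so its value is uncertain. The count of risen targets was 1 without Atg5-deficient replicate 2 and without wild-type replicate 1 or 5, 3 without Atg5-deficient replicate 1 or wild-type replicate 4, and 8 without Atg5-deficient replicate 6. The same count was 10 with DESeq2, 12 with limma-voom and 1 without the 3 libraries of highest hepatocyte markers, and 0 among the 8 with consecutive title numbers. Over all 17987 tested genes, DESeq2 called 1394 higher and limma-voom 1966. The fit without the 3 libraries called 728 of 18606 genes higher, and that of the 8 libraries 87 of 18831. Ccr7 lost its call without wild-type replicate 5, among the 8 libraries with consecutive title numbers and without the 3 libraries of highest hepatocyte markers.

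Immediate early genes, which respond within minutes to stimulation and to cell isolation, were measured beside these inducible inhibitors. Of 14 tested, none rose and 1 fell (over all tested genes, 4.43% and 2.41%), with a median of 0.07. Jun, the gene that fell, averaged 553 ± 77.5 CPM in wild-type and 392 ± 36.9 CPM in Atg5-deficient libraries (edgeR log2 fold change -0.50, adjusted p = 0.0116). Fos (-0.32, adjusted p = 0.204) and Dusp1 (0.22, adjusted p = 0.337) did not pass.

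**Figure D5:**
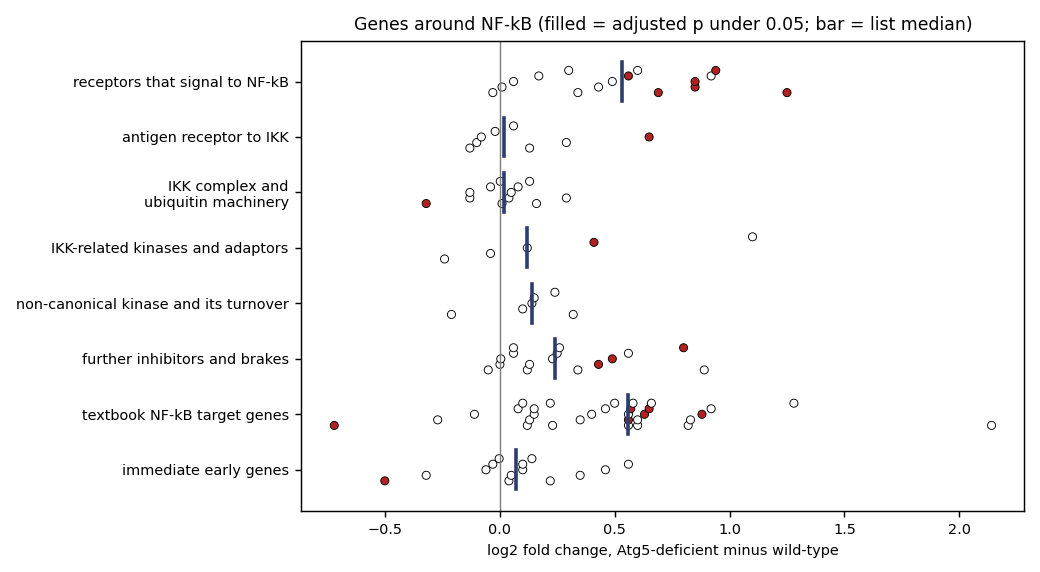
Log2 fold change, Atg5-deficient minus wild-type (horizontal axis), of each tested gene in 8 lists around NF-kB, with filled points for an edgeR adjusted p under 0.05 and a bar for the list median. Medians are 0.53 for receptors and 0.56 for target genes, and 0.02 for the IKK complex and for the antigen receptor route.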

How the data were processed

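The authors deposited raw counts per gene and library. The submitters' processing notes name STAR, featureCounts and GRCm38. The sources used here do not give versions, annotation release, strand setting or the handling of duplicates. Of 56748 Ensembl IDs, 52125 (91.9%) matched GENCODE M21. The table had 0 columns of other samples. Genotype came from the labels, and replicates were numbered in accession order and pair nothing.

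Genes were filtered with filterByExpr (minimum count 10, minimum total 15), scaled by TMM factors and tested with edgeR 4.0.16 in R 4.3.3 (robust quasi-likelihood F test, Benjamini-Hochberg over 17987 genes, threshold 0.05). CPM of genes are TMM-scaled, log2 CPM use a prior count of 2, marker sums use total counts, and levels per kb use merged exon length. The test was checked on simulated data with changes set in randomly drawn genes. It recovered 23.9% of 1.5-fold, 62.7% of 2-fold and 71.2% of 4-fold changes, and 7 of 112 calls were false. The genes were drawn from all tested genes at any count level, with spread set by the trend over genes. These rates therefore do not describe the members in particular, which had at least 966 counts in each library. Changes below 1.5-fold were not simulated, and a gene that did not pass may still differ. At the shallowest library 3 counts correspond to 0.0977 CPM. Libraries of a group differed well beyond sampling noise (chi-square divided by its degrees of freedom, 13.7 to 186), so none was counted as a repeat. Correlations were tested with 100000 permutations within genotype. Alternatives were other scaling factors, DESeq2 1.42.0, limma-voom (limma 3.58.1), other filters, marker covariates and subsets of libraries. 1 was added after seeing the data, the fit without the libraries of highest hepatocyte markers.

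The members, gene lists and tests were chosen with earlier results of these data known. Named are all members, the 3 genes of each list with the smallest p, the 5 genes most like Relb and Nfkb1, and Atg5 and Cd4 as checks; the dendritic cell markers, overlapping genes and further list members (Tnfrsf4, Ltbr, Nfkbid, Bcl2l1, Bcl2a1b, Icam1) were named after their values were seen. Of the lists, CD8 T, NK, endothelial, stellate, cholangiocyte, neutrophil and erythroid markers gave adjusted p of 0.816, 0.0693, 0.438, 0.592, 0.292, 0.369 and 0.816 (exact permutation over 462 splits), and CD4 T cell, hepatocyte, B cell and macrophage markers 0.0693, 0.592, 0.403 and 0.592.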

Additional observations from a re-analysis of the deposited data

How the results depend on the processing

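The count of members called higher, 1 with all libraries, was 0 with upper-quartile factors, 0 with the B cell, dendritic cell and macrophage covariate, 0 among the 8 libraries with consecutive title numbers, 0 without the 3 libraries of highest hepatocyte markers, 3 with DESeq2 (Nfkb2, Relb, Nfkbia) and 2 with limma-voom (Nfkb2, Nfkbia). Without a low-count filter it was also 1, but that was Nfkbia. It ran from 0 to 2 when single libraries were left out, and the count called lower was 0 in all of these fits. The counts given above for lists under other settings are to be read beside the counts over all genes that follow. Over all genes, 797 were called higher and 434 lower. DESeq2 gave 1394 and 939, limma-voom 1966 and 1460, that same covariate 1396 and 671, the 8 libraries with consecutive title numbers alone 87 and 89. Upper-quartile factors gave 584 and 685, or 46.0% higher against 64.7%, and the fit without the 3 libraries gave 728 and 218. Leaving out single libraries gave 402 to 1410 higher and 191 to 733 lower, the most without Atg5-deficient replicate 3. Directions reversed for Rel with that covariate (-0.0027), and for Tnfaip3 (-0.30) and Nfkbiz (-0.09) without the 3 libraries. All 10 members stayed positive under each scaling. The causes were not tested. The median over members ranged from 0.12 to 0.41. The non-canonical minus canonical difference was computed again only with other scaling factors, another prior count, summed CPM and subsets of libraries. In each of these it moved by less than the wild-type SD of 0.18. It was not computed with the marker covariates, DESeq2, limma-voom or other filters. No paired analysis was possible because replicates carry no shared numbers in the labels. Each member had at least 966 counts in each library.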
